A study of Mus musculus with 18 samples.

Results

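The AP-1 subunit genes Fos, Fosb, Jun, Junb and Jund and the heat shock genes Hspa1a, Hspa1b and Dnajb1 were followed in mouse thymocytes with a transgenic T cell receptor, OT2 or OT1. These 8 genes were taken as a set to look at receptor signal beside a response to handling of tissue. All 8 were found by symbol among the 55494 genes of the RNA matrix.

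The cells came from bone marrow chimeras, mice whose blood-forming cells were replaced by a mixture of 30% marrow with a transgenic receptor (CD45.1.2) and 70% B6 competitor marrow (CD45.1). Recipients were C57BL/6 females sampled at 14 weeks of age, 6 weeks after the transplant. The transgenic receptor was OT2, which recognises an ovalbumin peptide on MHC class II, or OT1, which recognises one on MHC class I. Thymi were dissociated mechanically, and cells low in CD44 and positive for CD45.1.2, Vα2 and Vβ5 were sorted, so the host's own and the competitor's thymocytes were gated out. Each receptor was studied in 3 hosts. NegSelected hosts were RIPmOVA mice, in which the insulin promoter drives membrane ovalbumin. PosSelected hosts were wild-type C57BL/6. NoSelection hosts were MHC class II knockouts (OT2 mouse) or β2-microglobulin knockouts (OT1 mouse), although another label field of the OT2 NoSelection mouse names the β2-microglobulin knockout. There was 1 mouse per receptor and host, 6 in all, and every cell came from the same 10x Genomics 5′ lane after hashtagging, so handling of the pool cannot be told apart from any level that the mice shared.

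The matrix held 1331 cells, 108 to 306 per mouse, with 525843 to 1867488 RNA unique molecular identifiers (UMIs, each a captured transcript) per mouse and 6926058 in all. Median RNA UMIs per cell were 2756 to 3021.5 in the OT2 mice and 4733 to 5385 in the OT1 mice, and the median mitochondrial share was 1.55% to 1.83% in OT2 and 1.15% to 1.17% in OT1. T cell markers were detected in 1322 of 1331 cells. CD4 and CD8A antibody counts divided the cells into 331 CD4+CD8-, 202 CD4-CD8+, 547 CD4-CD8- and 251 CD4+CD8+ cells, and 232 of them were closer than 0.5 to a threshold on the log2 scale. Of 8 myeloid markers C1qa and C1qb had 0 UMIs, Cst3 had 775 (39.8% of cells), Fcer1g 80 and Tyrobp 24. Of 5 thymic epithelial markers Krt5, Psmb11 and Foxn1 had 0, and Epcam had 87 UMIs (4.88% of cells). Of 5 erythroid markers Hba-a2 and Hbb-bs had 0, and the list was seen in 11 cells. B cell markers were seen in 10.3% of cells, mostly as Cd79b (9.54%), and NK markers in 6.54%, mostly as Klrd1 (5.71%). Gamma delta markers (Trdc, Sox13, Trgc1, Trgc2) were detected in 94.5% of CD4-CD8- cells and summed to 1731 CPM there (mean of 6 mice), against 202 CPM in CD4+CD8+ cells. Levels are given as CPM, a gene's UMIs scaled to the same RNA total in each mouse or gate. They were not divided by gene length, so no order of levels between genes is drawn.

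AP-1 is a dimer of a Fos and a Jun family protein that binds short DNA sites in promoters and enhancers. In T cells the antigen receptor raises it through MAP kinases, and Fos, Fosb, Jun and Junb are immediate early genes whose transcripts appear and decay quickly. The same genes, together with Hspa1a, Hspa1b and Dnajb1, are known to rise in many cell types during enzymatic or warm tissue dissociation. Hspa1a and Hspa1b encode the inducible HSP70 chaperone, and Dnajb1 encodes an HSP40 co-chaperone that stimulates it. Their transcription is driven by heat shock factor, which binds inverted repeats of the element GAA.

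The genes map to mouse chromosomes 4, 7, 8, 12 and 17 in the RefSeq annotation of GRCm38.p6, the build the deposited counts were made on. Fos is at chr12:85473890-85477274, Fosb at chr7:19302696-19310118, Jun at chr4:95049036-95052222, Junb at chr8:84976909-84978748, Jund at chr8:70697739-70700616 and Dnajb1 at chr8:83608175-83612653. Hspa1a at chr17:34969359-34972156 and Hspa1b at chr17:34956429-34959238 are neighbours. The 250 bases before the RefSeq start are shown for the heat shock genes, because Hspa1a and Hspa1b are near-identical copies and were almost absent while Dnajb1 was abundant, and for Fos, the classical immediate early gene of the set. Capitals mark matches, on either strand, to the heat shock element pair GAANNTTC or the TATA box TATAAA. The Hspa1a window is chr17:34972157-34972406 (minus strand), the Hspa1b window chr17:34959239-34959488 (minus strand), the Dnajb1 window chr8:83607925-83608174 (plus strand) and the Fos window chr12:85473640-85473889 (plus strand). Dnajb1 also had a second RefSeq window, chr8:83608298-83608547, which is not printed.
Hspa1a: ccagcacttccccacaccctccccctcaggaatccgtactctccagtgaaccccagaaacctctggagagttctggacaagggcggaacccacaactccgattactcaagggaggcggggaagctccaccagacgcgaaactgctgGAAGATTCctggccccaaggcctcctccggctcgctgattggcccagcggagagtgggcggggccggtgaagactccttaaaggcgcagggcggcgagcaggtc
Hspa1b: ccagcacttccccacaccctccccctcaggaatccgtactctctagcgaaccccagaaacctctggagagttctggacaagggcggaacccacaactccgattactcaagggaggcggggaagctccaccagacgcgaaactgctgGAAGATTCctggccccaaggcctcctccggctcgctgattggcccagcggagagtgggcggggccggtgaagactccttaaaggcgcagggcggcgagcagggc
Dnajb1: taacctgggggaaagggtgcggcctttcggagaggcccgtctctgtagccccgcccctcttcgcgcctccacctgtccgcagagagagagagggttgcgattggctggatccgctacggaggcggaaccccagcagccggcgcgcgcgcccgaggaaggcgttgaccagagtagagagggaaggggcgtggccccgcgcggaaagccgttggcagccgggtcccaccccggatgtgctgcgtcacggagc
Fos: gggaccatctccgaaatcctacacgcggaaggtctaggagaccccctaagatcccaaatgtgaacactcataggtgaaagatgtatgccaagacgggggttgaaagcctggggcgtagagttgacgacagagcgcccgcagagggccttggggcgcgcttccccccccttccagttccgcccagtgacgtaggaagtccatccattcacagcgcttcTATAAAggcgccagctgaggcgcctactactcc
Hspa1a and Hspa1b shared 247 of 250 aligned bases (98.8%), against 48.5% for either with Dnajb1. Both held the pair GAAGATTC 104 bases before the start, and the Jun window held GAATCTTC 128 bases before its start. The Fos window held TATAAA 33 bases before the start. The pair GAANNTTC occurs in 6.69% of all 32851 RefSeq windows of this length and TATAAA in 12.4%. Searches for the AP-1 site TGANTCA (6.75% of windows) and the cyclic AMP response element TGACGTCA (1.55%) gave no match in any of the 8 genes, and the Dnajb1, Fosb, Junb and Jund windows matched none of the motifs. A window without a match says only that these letters are not in it.

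Jund, Dnajb1 and Junb were well detected, Jun and Fos were sparse, and Fosb, Hspa1a and Hspa1b were nearly absent. Jund, the constitutively expressed Jun family member, gave 2143 UMIs in 906 cells (68.1%). Junb gave 729 UMIs in 444 cells (33.4%). Jun, the classical partner of Fos, gave 121 UMIs in 102 cells (7.66%). Fos gave 117 UMIs in 67 cells (5.03%), and Fosb gave 5 UMIs in 5 cells. Dnajb1 gave 1303 UMIs in 726 cells (54.5%). Hspa1b gave 4 UMIs in 3 cells, of which 3 UMIs fell in the OT2 NoSelection mouse and 1 in the OT1 PosSelected mouse. Hspa1a gave 0 UMIs. Taking 3 counts as the limit that 0 allows, this is up to 0.433 CPM over the pool and up to 0.225% of cells with a captured UMI, which does not limit the share of cells expressing it. Because reads from the 2 copies may have been split or discarded, and how the counting treated them is not given in the sources used here, the joint level of Hspa1a and Hspa1b is uncertain. These limits cover counting error only.

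Of the 20 other heat shock genes listed, 18 were above 10 CPM and 1 had no UMI. Atf3, a stress-induced AP-1 partner, had 1 UMI, the small heat shock gene Hspb1 had 0, and Bag3, an HSP70 co-chaperone, had 27 UMIs. Among the abundant chaperones, Hspa8 averaged 2348 ± 259 CPM and Hsp90ab1 2389 ± 156 CPM (SD, n = 6 mice). Of the 26 other immediate early genes listed, 22 were above 10 CPM. Among them Ier2 had 882 UMIs, Egr1 1005 and Nr4a1 429, while Klf4 had 1 UMI and Ier3 10.

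When each cell was thinned to 1000 RNA UMIs, which left out 25 shallower cells, Jund was detected in 26.2% of 1306 cells, Dnajb1 in 17.1%, Junb in 10.4%, Jun in 1.84% and Fos in 1.68%. No population in the sort is known to lack these genes, so the share that free RNA could give was not tested. Fos UMIs were concentrated in few cells. The 19 cells with at least 2 Fos UMIs held 69 of the 117 (59.0%), and 5 cells with at least 5 held 34 (29.1%). The highest count in a cell was 10 for Fos, 5 for Jun, 12 for Junb, 21 for Jund and 13 for Dnajb1. Junb had a UMI in 34 of 67 Fos-positive cells (50.7%) and in 410 of 1264 others (32.4%). Fos-positive cells were deeper, with a median of 5568 RNA UMIs against 3980.5. In thinned cells Junb was detected in 8 of 22 Fos-positive cells (36.4%) and 128 of 1284 others (9.97%). Dnajb1 and Jund showed no such difference in thinned cells: Jund was detected in 60 of 223 Dnajb1-positive cells (26.9%) and 282 of 1083 others (26.0%). Cells of 1 mouse are not replicates, so these shares are descriptions.

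The first comparison was between hosts and between receptors, on UMIs summed over each mouse, with edgeR's quasi-likelihood test and Benjamini-Hochberg adjustment over 9092 genes. With 1 mouse per receptor and host, the 2 receptors stood in as replicates of a host and the 3 hosts as replicates of a receptor. A gene was called at an adjusted p under 0.05. In such sums, fewer cells expressing a gene and less of its RNA per cell cannot be told apart. Of the 8 genes, 5 passed the filter on low counts (Jund, Junb, Fos, Jun and Dnajb1), and Fosb, Hspa1a and Hspa1b are given as values only. None of the 5 was called in any of the 4 contrasts by edgeR or DESeq2. Against all genes, edgeR called 0% for NegSelected minus NoSelection, 0% for NegSelected minus PosSelected, 0.011% for PosSelected minus NoSelection and 1.07% for OT2 minus OT1. At an unadjusted p under 0.05 edgeR found 1 of the 5, Jund in PosSelected minus NoSelection (7.3% of all genes), and none in NegSelected minus NoSelection (2.6%), NegSelected minus PosSelected (4.6%) or OT2 minus OT1 (13.3%).

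Jund measured 351, 431 and 243 CPM in the OT2 NegSelected, PosSelected and NoSelection mice, and 277, 350 (349.8) and 244 CPM in the OT1 NegSelected, PosSelected and NoSelection mice. Within each receptor PosSelected was highest and NoSelection lowest. Both PosSelected mice lay above both NoSelection mice, while OT2 NegSelected (351 CPM) lay just above OT1 PosSelected. PosSelected minus NoSelection was 0.71 on the log2 scale (SE 0.19, adjusted p = 0.332 by edgeR). The PosSelected to NoSelection ratio was 1.77 in OT2 (95% counting interval 1.44 to 2.19) and 1.43 in OT1 (1.27 to 1.62), each between 2 mice. NegSelected minus PosSelected was -0.38 (SE 0.19) and NegSelected minus NoSelection 0.34 (SE 0.19).

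Junb, which encodes a Jun protein that can restrain AP-1 activity, measured 154, 181 and 70.4 CPM in the OT2 NegSelected, PosSelected and NoSelection mice, and 82.2, 95.6 and 92.1 CPM in the OT1 mice in the same order. The OT2 NegSelected and PosSelected mice were high, and the other 4 mice were close together. Its ratio of PosSelected to NoSelection was 2.58 in OT2 (1.79 to 3.80) and 1.04 in OT1 (0.837 to 1.29). OT2 minus OT1 was 0.50 (SE 0.26, adjusted p = 0.465 by edgeR), and PosSelected minus NoSelection was 0.64 (SE 0.32). Both changed with the NoSelection mice, and OT2 minus OT1 was smaller with both of these mice in. Without the OT1 NoSelection mouse Junb was at 0.88 for OT2 minus OT1. PosSelected minus NoSelection was then 1.42, with only the OT2 mouse left as NoSelection. Without the OT2 NoSelection mouse OT2 minus OT1 was also 0.88. With either left out, that contrast compares only the PosSelected and NegSelected mice.

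Fos measured 22.1, 13.7 and 24.7 CPM in the OT2 NegSelected, PosSelected and NoSelection mice, from 13, 11 and 13 UMIs. In the OT1 NegSelected, PosSelected and NoSelection mice it measured 10.2, 14.5 and 21.4 CPM, from 13, 27 and 40 UMIs. The NoSelection mouse was the highest of its receptor in both. Both NoSelection mice lay above both PosSelected mice, and the NegSelected mice overlapped both hosts. PosSelected minus NoSelection was -0.63 (SE 0.40) and NegSelected minus NoSelection -0.65 (SE 0.42). Jun measured 22.1, 14.9 and 7.61 CPM in the same OT2 order and 10.97, 18.3 and 23.6 CPM in the same OT1 order. The order of the hosts in OT2 was the reverse of that in OT1, and all 4 contrasts were within 1 SE of 0. Fosb was seen as 1 UMI in the OT2 PosSelected mouse and 2 UMIs each in the OT1 NegSelected and PosSelected mice.

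Dnajb1 measured 169.65, 148 and 222.5 CPM in the OT2 NegSelected, PosSelected and NoSelection mice, and 185, 181 and 212 CPM in the OT1 mice in that order. NoSelection was highest and PosSelected lowest in both receptors, the reverse of Jund, and both PosSelected mice lay below both NoSelection mice. PosSelected minus NoSelection was -0.34 (SE 0.19, adjusted p = 0.774 by edgeR). Over the 6 mice Dnajb1 averaged 186 ± 27.4 CPM and Jund 316 ± 74.2 CPM (SD).

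**Figure D1:**
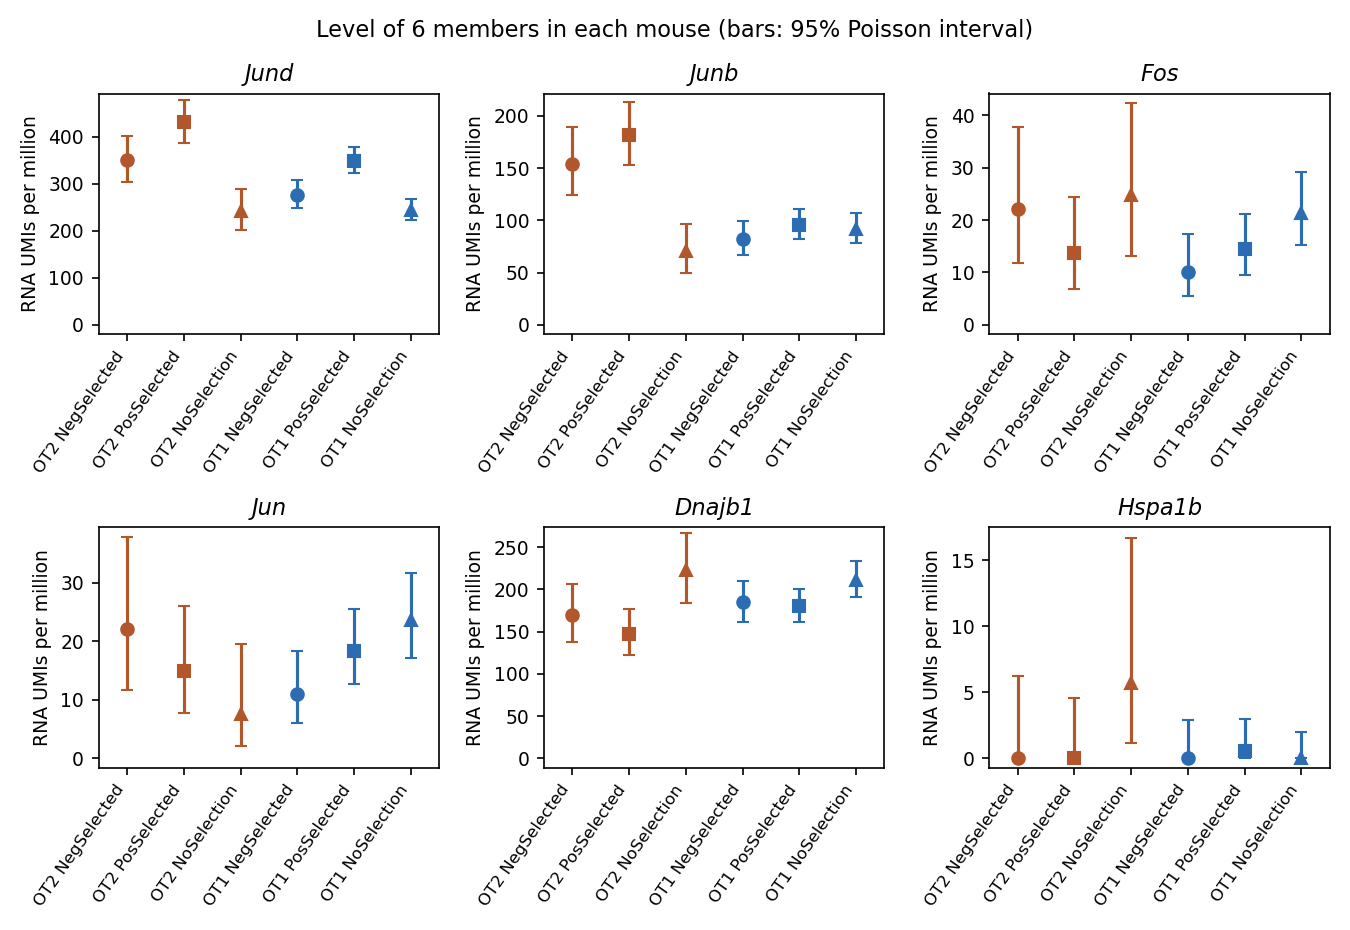
Level of 6 genes in each of the 6 mice, in CPM, with OT2 mice in orange and OT1 mice in blue, circles for NegSelected, squares for PosSelected and triangles for NoSelection. Bars are exact 95% Poisson intervals, which cover counting error only. Jund was lowest in the 2 NoSelection mice and Dnajb1 was highest there, while Hspa1b was 0 in 4 of 6 mice.

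The mice differed in their make-up by gate, which bears on these sums. CD4+CD8- cells were 22.6%, 75.6% and 9.26% of the OT2 NegSelected, PosSelected and NoSelection mice, and 11.8%, 17.7% and 4.90% of the OT1 mice in that order. CD4-CD8- cells were 16.9%, 8.66% and 45.4% in OT2 and 67.2%, 29.4% and 73.9% in OT1. With gates given equal weight, as means over gates of log2(CPM + 10), a scale that understates changes of low genes such as Fos, Jund in PosSelected minus NoSelection was 0.35 in place of 0.71. Under that weighting Dnajb1 (0.07) and Fos (0.03) in PosSelected minus NoSelection, Fos in NegSelected minus NoSelection (0.13), and Jund (-0.11) and Junb (-0.21) in OT2 minus OT1 took the opposite sign.

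The second comparison was between antibody gates within a mouse. UMIs were summed per mouse and gate, the 22 of 24 sums with at least 10 cells were kept, and the mouse was a block in the fit (4301 genes). The CD4-CD8+ gate of the OT2 PosSelected (7 cells) and OT2 NoSelection (5 cells) mice was left out. Jund, Junb and Dnajb1 passed the filter, and Fos and Jun did not. Jund rose in CD4+CD8- cells relative to CD4+CD8+ cells, the only call among the 3 genes in 4 gate contrasts. In that contrast edgeR called 11.5% of all genes, 6.35% higher and 5.12% lower. All 3 genes, and 23% of all genes, had an unadjusted p under 0.05.

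Jund measured 338, 473 and 321 CPM in the CD4+CD8- cells of the OT2 NegSelected, PosSelected and NoSelection mice, and 369.6, 728 and 444 CPM in those of the OT1 mice in that order. In CD4+CD8+ cells it measured 389, 413 and 317 CPM in the OT2 mice and 232, 316 and 262 CPM in the OT1 mice. CD4+CD8- was higher in 5 of 6 mice, with the OT2 NegSelected mouse the exception, and the 2 gates overlapped in range. The means were 445 ± 151 CPM in CD4+CD8- and 321 ± 70.1 CPM in CD4+CD8+ cells (SD, n = 6), and the fitted difference was 0.61 (SE 0.18, adjusted p = 0.0284 by edgeR). DESeq2 made the same call. The call was lost without the OT1 PosSelected mouse (0.46, adjusted p = 0.143), without the OT1 NoSelection mouse (0.57, 0.124), without the OT2 PosSelected mouse (0.67, 0.0586) and without the OT1 NegSelected mouse (0.63, 0.0570).

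In CD4-CD8+ cells Jund measured 423 CPM in OT2 NegSelected and 414, 369 and 306 CPM in OT1 NegSelected, PosSelected and NoSelection. These 4 values were each above the CD4+CD8+ value of the same mouse (0.33, SE 0.21, not called). In CD4-CD8- cells Jund measured 283, 223 and 216 CPM in the OT2 mice and 256, 215 and 221 CPM in the OT1 mice, in the order NegSelected, PosSelected, NoSelection. That was the narrowest range of the 4 gates, 236 ± 27.9 CPM, and lower than CD4+CD8+ in 5 of 6 mice (-0.34, SE 0.18, adjusted p = 0.249 by edgeR). edgeR called 2.26% of all genes in CD4-CD8+ minus CD4+CD8+, 11.6% in CD4-CD8- minus CD4+CD8+ and 1.93% in CD4+CD8- minus CD4-CD8+, and 0 of the 3 genes in each. In these 3 contrasts DESeq2 also called 0 of the 3, and none had an unadjusted p under 0.05 by edgeR, against 15.8%, 24.8% and 12.9% of all genes in that order.

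Junb varied most between mice in CD4+CD8- cells, at 235, 228 and 21.4 CPM in the OT2 NegSelected, PosSelected and NoSelection mice and 97.3, 106 and 180.5 CPM in the OT1 mice. The 21.4 CPM of the OT2 NoSelection mouse was 1 UMI from 10 cells. In CD4+CD8+ cells it measured 145, 76.1 and 70.4 CPM in OT2 and 77.2, 160.4 and 63.6 CPM in OT1. CD4+CD8- was higher in 4 of 6 mice and the gates overlapped (0.67, SE 0.31, adjusted p = 0.190 by edgeR). Without the OT1 PosSelected mouse Junb was called (1.08, adjusted p = 0.0426).

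Dnajb1 ran the other way. It measured 152, 130.3 and 85.5 CPM in the CD4+CD8- cells of the OT2 NegSelected, PosSelected and NoSelection mice and 97.3, 192 and 83.3 CPM in those of the OT1 mice. In CD4+CD8+ cells it measured 229, 163 and 387 CPM in OT2 and 241, 145 and 175 CPM in OT1. CD4+CD8- was lower in 5 of 6 mice, with the OT1 PosSelected mouse the exception (-0.56, SE 0.25, adjusted p = 0.172 by edgeR). The gate means were 123 ± 43.1 CPM in CD4+CD8-, 131 ± 43.0 CPM in CD4-CD8+ (n = 4), 199.7 ± 30.3 CPM in CD4-CD8- and 224 ± 88.7 CPM in CD4+CD8+ cells.

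**Figure D2:**
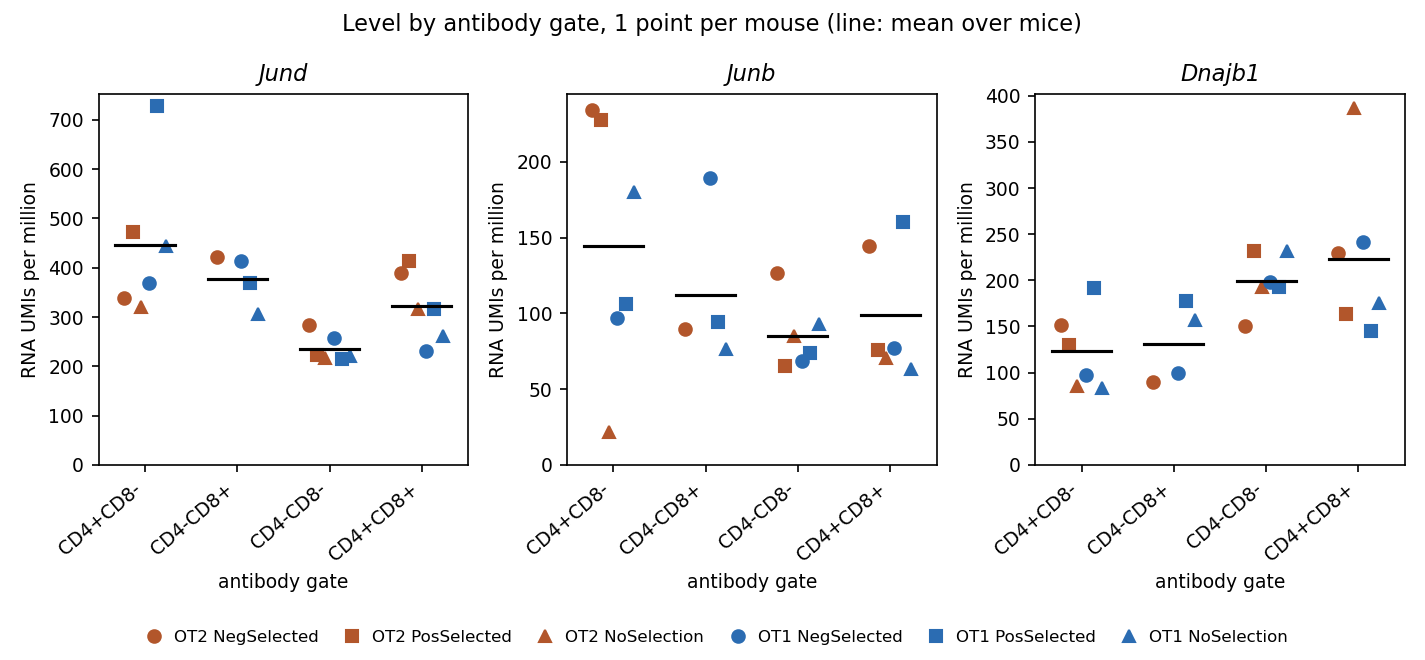
Level of Jund, Junb and Dnajb1 in CPM in each antibody gate, 1 point per mouse with at least 10 cells in that gate and a line at the mean over mice. Colour gives the receptor and shape the host. Jund was highest on average in CD4+CD8- cells (445 CPM) and most tightly grouped in CD4-CD8- cells, and Dnajb1 was lowest on average in CD4+CD8- cells (123 CPM).

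Depth and cell state moved with these gates, and their part in the Jund and Dnajb1 differences was not tested. Median RNA UMIs per cell were 3223 in CD4+CD8-, 5765 in CD4-CD8+, 5234 in CD4-CD8- and 2581 in CD4+CD8+ cells. Median mitochondrial shares were 1.45%, 1.14%, 1.18% and 1.94% in that order. The 6 preselection markers (Rag1, Rag2, Dntt, Arpp21, Cd8b1, Cd4) summed to 310 CPM (208 to 454) in CD4+CD8- and 2653 CPM (666 to 7441) in CD4+CD8+ cells, with 1 of the 6 at 0 in CD4+CD8- cells. NK markers summed to 3.75 CPM in CD4+CD8-, 113 in CD4-CD8+, 25.8 in CD4-CD8- and 3.62 CPM in CD4+CD8+ cells, and B cell markers to 4.89, 13.2, 38.0 and 16.5 CPM in the same order. In thinned cells pooled over the mice Jund was detected in 35.6% of CD4+CD8-, 25.0% of CD4-CD8+, 20.6% of CD4-CD8- and 26.9% of CD4+CD8+ cells. Dnajb1 was detected in 10.4%, 13.5%, 19.5% and 23.6% of these thinned cells in the same order. Pooling mixes gate with mouse: OT2 PosSelected gave 192 of the 331 CD4+CD8- cells and OT2 NegSelected 87 of the 251 CD4+CD8+ cells, before thinning.

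The sparse genes gave few UMIs per gate. Fos averaged 13.8 ± 16.0 CPM in CD4+CD8-, 12.001 ± 10.9 in CD4-CD8+, 20.4 ± 14.5 in CD4-CD8- and 8.91 ± 4.95 CPM in CD4+CD8+ cells. Jun averaged 16.9 ± 15.8, 11.4 ± 13.6, 15.0 ± 6.28 and 20.96 ± 10.2 CPM in the same order. For both, the spread between mice was as large as the difference between gates. The 3 Hspa1b UMIs of the OT2 NoSelection mouse all fell in CD4-CD8- cells, and the UMI of the OT1 PosSelected mouse fell in a CD4-CD8+ cell.

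Other genes of the 2 pathways are described by lists that were chosen with earlier results of these data known. Among 13 other AP-1 family genes, 4 were tested between gates. Bach2, a repressor related to AP-1, rose in CD4+CD8- relative to CD4+CD8+ cells (1.38, SE 0.24, adjusted p = 0.000472 by edgeR). Batf, a Jun partner, rose in CD4-CD8- relative to CD4+CD8+ cells (1.54, adjusted p = 0.00595), a call that was lost without cells near a gate threshold (1.24, adjusted p = 0.116). Among 26 other immediate early genes, 17 were tested, and in CD4+CD8- minus CD4+CD8+ 6 rose and 1 fell (median 0.59, against -0.05 over all genes). Klf2, a transcription factor of mature thymocytes, was at 2.69, Gadd45b at 4.09, Zfp36l1 at 1.30 and Btg1 at 0.83, and Egr1, induced by MAP kinase signalling, fell (-1.02, adjusted p = 0.0433). Among 20 other heat shock genes, 16 were tested in that contrast, and 1 rose (Hspe1, 0.77, adjusted p = 0.0324) and 1 fell (Hspa4l, -0.996, adjusted p = 0.0212). The Egr1 call was not made by DESeq2 (count 0 for the list) and was lost in 7 alternatives. Among these were leaving out the OT1 NegSelected, OT1 PosSelected or OT2 NegSelected mouse (count 0 in each). The Gadd45b call was lost in 3 alternatives, among them leaving out OT2 NegSelected. The Hspe1 call was lost without OT1 NoSelection, OT2 NegSelected, OT2 NoSelection or OT2 PosSelected, and the Hspa4l call without OT1 PosSelected, OT2 NegSelected or OT2 PosSelected (count 0 in each).

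In CD4-CD8- minus CD4+CD8+ the heat shock list had 3 genes higher and 1 lower of 16 tested (median 0.29 against -0.02 over all genes), where 6.91% of all genes were called higher and 4.7% lower. Hspe1 (0.92), Hspa4 (0.74) and Hsp90ab1 (0.67) rose and Dnaja1 fell (-0.41). The count higher was 0 to 5 over 13 alternatives, and 0 without the deepest 5% of cells of each mouse. The Dnaja1 call was lost without any 1 of the mice other than OT2 NoSelection. Of 10 genes of endoplasmic reticulum stress 8 were tested and 5 rose, among them Sdf2l1 (1.67), Hsp90b1 (1.37), Hspa5 (1.24) and Calr (0.94), all chaperones or their partners in that compartment. The gamma delta markers given above moved with this contrast, and their part in it was not tested.

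Host and receptor contrasts were repeated within the 3 gates that had at least 10 cells in every mouse. None of the genes tested was called: 0 of 3 in CD4+CD8- and in CD4+CD8+ cells and 0 of 4 in CD4-CD8- cells, where Fos also passed. DESeq2 was not run on these sums. In the order NegSelected minus NoSelection, NegSelected minus PosSelected, OT2 minus OT1 and PosSelected minus NoSelection, edgeR called 0%, 0.113%, 0.565% and 0.0754% of all genes in CD4+CD8- cells. The shares were 0%, 0%, 1.16% and 0% in CD4-CD8- cells and 1.19%, 0.29%, 17.3% and 2.5% in CD4+CD8+ cells. At an unadjusted p under 0.05 edgeR found 1 of these genes in each gate. The shares of all genes at that p, in the same order of contrasts, were 5.92%, 4.37%, 9.08% and 5.65% in CD4+CD8-, 1.19%, 2.25%, 6.89% and 1.98% in CD4-CD8-, and 8.14%, 4.27%, 31.5% and 10.6% in CD4+CD8+ cells. In CD4+CD8- cells Jund was at -0.72 (SE 0.26, adjusted p = 0.959 by edgeR) in NegSelected minus PosSelected. In CD4+CD8+ cells Dnajb1 was at -0.78 (SE 0.38, adjusted p = 0.445 by edgeR) in PosSelected minus NoSelection. For the same contrast Dnajb1 was at 0.80 (SE 0.48) in CD4+CD8- and -0.06 (SE 0.29) in CD4-CD8- cells, so its sign differed between gates. In CD4-CD8- cells Fos was at -2.60 (SE 0.81, adjusted p = 1.00 by edgeR) in PosSelected minus NoSelection. Those Fos values were 36.1, 9.29 and 37.0 CPM in the OT2 NegSelected, PosSelected and NoSelection mice, and 11.5, 3.21 and 25.6 CPM in the OT1 mice. The 2 PosSelected mice were the lowest, with 1 and 2 UMIs. Jund in PosSelected minus NoSelection, at 0.71 over whole mice, was at 0.54 (SE 0.29) in CD4+CD8- cells. It was at 0.31 (SE 0.33) in CD4+CD8+ and 0.003 (SE 0.27) in CD4-CD8- cells.

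Receptor-induced genes were called in some of the same within-gate fits. In NegSelected minus PosSelected within CD4+CD8- cells, 2 of 11 tested rose, Ikzf2 (4.46) and Tnfrsf9 (4.11), both at adjusted p = 0.00181 by edgeR. Ikzf2 encodes the transcription factor Helios and Tnfrsf9 the costimulatory receptor 4-1BB. In NegSelected minus NoSelection within CD4+CD8+ cells, 3 of 7 rose, among them Itm2a (3.09) and Egr1 (1.51). In those contrasts Jund, Junb and Dnajb1 were at -0.72, -0.02 and -0.27 in CD4+CD8- cells and at 0.08, 0.83 and -0.22 in CD4+CD8+ cells.

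Surface protein was used as a gauge of receptor signal, measured apart from RNA. CD69 appears on thymocytes after receptor engagement, and CD5 follows the strength of the signal. The cells of each mouse and gate were divided at their median antibody level, scaled to the antibody total of the cell, and UMIs of the high and low cells were summed per mouse (12 sums, mouse as a block). For CD69, 0 of 5 genes were called by edgeR or DESeq2, against 0.15% of 8013 genes by edgeR (0.0499% higher and 0.0998% lower), and 2 of 5, and 6.9% of all genes, had an unadjusted p under 0.05. Fos was higher in the CD69-high cells of all 6 mice, and Jund in 5 of 6.

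Fos measured 26.7 CPM in CD69-high and 17.3 in CD69-low cells of the OT2 NegSelected mouse, 17.7 and 9.76 CPM in OT2 PosSelected, and 43.9 and 3.96 CPM in OT2 NoSelection. In OT1 it measured 11.5 and 8.96 CPM in NegSelected, 15.7 and 13.3 CPM in PosSelected, and 31.1 and 11.8 CPM in NoSelection, CD69-high cells first. The high and low ranges overlapped across mice although every mouse had the same direction. These came from 8 and 5, 7 and 4, and 12 and 1 UMIs in OT2 NegSelected, PosSelected and NoSelection. In the OT1 mice in that order they came from 7 and 6, 15 and 12, and 29 and 11 UMIs. The direction thus rested on few UMIs, with the widest gaps in the NoSelection mice. The means were 24.4 ± 11.98 CPM in CD69-high and 10.8 ± 4.47 CPM in CD69-low cells, from 78 and 39 UMIs, a difference of 0.93 (SE 0.33, adjusted p = 0.440 by edgeR). In OT2 NoSelection the 12 UMIs of the high cells came from 3 cells, 1 of them with 8. The difference rested on dividing CD69 by the antibody total: with undivided CD69 UMIs it was -0.05. Median CD69 UMIs were only 18 in the CD69-high and 14 in the CD69-low cells, while median antibody totals were 3329.5 and 4981 UMIs. The CD69-high and CD69-low cells therefore differed in antibody total as well as in CD69. Median RNA UMIs were 4011.5 and 4114.

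Jund was at 0.24 (SE 0.10, adjusted p = 0.555 by edgeR) in CD69-high minus CD69-low cells, with means of 348 ± 72.2 and 284 ± 87.3 CPM. Junb was at 0.16 (SE 0.12) and higher in 5 of 6 mice, Dnajb1 was at -0.11 (SE 0.10), and Jun was within 1 SE of 0. Receptor-induced genes were called in this division: 3 of 15 tested were higher and 0 lower, with a median of 0.71 against 0.00 over all genes. They were Tnfrsf9 (1.57, SE 0.23, adjusted p = 0.00271), Itm2a (0.74, adjusted p = 0.0125), a membrane protein induced in selection, and Nr4a1 (1.15, SE 0.22, adjusted p = 0.0334), an immediate early nuclear receptor. Over 14 alternatives that count ran from 0 (without the mouse block) to 8, and it was 1 without the OT1 NoSelection mouse. The Nr4a1 call was lost without OT1 NegSelected, OT1 PosSelected or OT2 NoSelection as well, and the Itm2a call also without OT2 NegSelected or OT2 PosSelected. The heat shock list had 0 of 17 called (median 0.07). The CD69 difference was also compared between OT2 and OT1. edgeR called 0.025% of genes and 0 of 5 here, 0 of them with an unadjusted p under 0.05 (5.38% of all genes), and DESeq2 was not run. Jun differed most, with an OT2 minus OT1 difference of -1.37 (SE 0.71, adjusted p = 0.919 by edgeR).

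CD5 gave 0 of 5 calls by edgeR and by DESeq2, and 0 of 5 at an unadjusted p under 0.05, where edgeR called 3.39% of 8076 genes (1.46% higher and 1.93% lower) and 15% of them had an unadjusted p under 0.05. Jun was at -0.36 (SE 0.34) and the other 4 genes were within 1 SE of 0. Jund averaged 315 ± 74.5 CPM in CD5-high and 318 ± 78.0 CPM in CD5-low cells. The receptor-induced list had 3 of 15 higher, Itm2a (0.76), Pdcd1 (0.58) and Cd5 itself (0.39), and the count ran from 0 to 6 over 14 alternatives. It was 0 without the mouse block and 0 with CD5 UMIs not divided by the antibody total, 1 by DESeq2 and 1 without the deepest 5% of cells, and 5 without the OT2 PosSelected mouse. The Cd5 call was lost in 8 of the alternatives, among them leaving out OT1 NegSelected, OT1 NoSelection, OT1 PosSelected or OT2 NegSelected, and the Pdcd1 call in 6, among them leaving out OT2 NoSelection. The heat shock list had 3 of 18 lower and 0 higher, Hsp90aa1 (-0.50, adjusted p = 0.00128), Hspd1 (-0.53) and Fkbp4 (-0.44), with a list median of -0.17 against 0.00 over all genes. That count was 0 without the deepest 5% of cells of each mouse and 0 without the mouse block, and 1 without the OT1 PosSelected mouse and 1 without the OT2 NoSelection mouse. Of the other AP-1 family genes 4 were tested and 1 was called, Bach2, higher in CD5-high cells (0.41, SE 0.11, adjusted p = 0.0410 by edgeR). That call was lost in 8 of the alternatives. Median CD5 UMIs were 476.5 in CD5-high and 66 in CD5-low cells, and median antibody totals were 4988 and 2783.

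**Figure D3:**
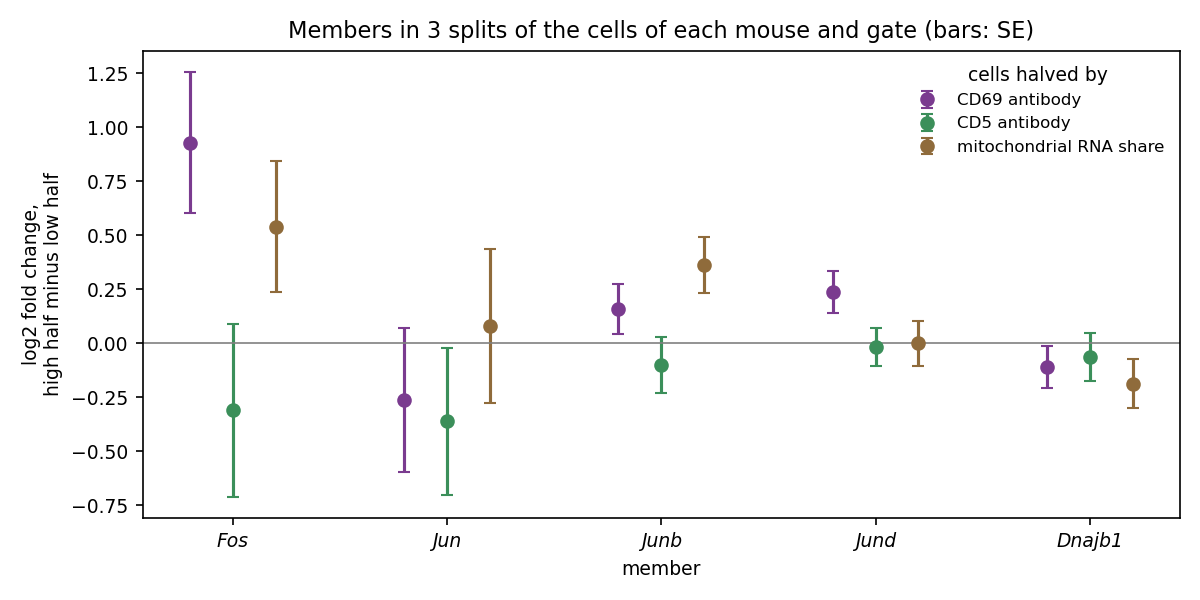
Difference in level (log2 fold change, high minus low) of the 5 tested genes when the cells of each mouse and gate were divided at the median of CD69 antibody, CD5 antibody or mitochondrial RNA share; bars are SE. Fos lay 0.93 above 0 for CD69, Junb 0.36 above 0 for the mitochondrial share, and Jund lay 0.24 above 0 for CD69.

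The mitochondrial share of RNA UMIs is a usual gauge of the state of a cell at lysis. Cells of each mouse and gate were divided at its median, and mitochondrial genes were left out of the sums. Median shares were 1.87% in the high and 0.953% in the low cells, and median RNA UMIs 4048.5 and 4086. Here edgeR called 16.3% of 7900 genes, 5.57% higher and 10.8% lower, and 0 of 5 of the genes described. DESeq2 also called 0 of 5, and 1 of 5, against 29.7% of all genes, had an unadjusted p under 0.05.

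That gene was Junb. It measured 159.8 CPM in the high and 156 in the low cells of the OT2 NegSelected mouse, 195 and 174 CPM in OT2 PosSelected, and 105 and 47.0 CPM in OT2 NoSelection. In OT1 it measured 105 and 65.0 CPM in NegSelected, 118 and 81.8 CPM in PosSelected and 108 and 81.5 CPM in NoSelection. The high cells were higher in 6 of 6 mice, with overlapping ranges and means of 132 ± 37.3 and 101 ± 51.6 CPM (0.36, SE 0.13, adjusted p = 0.0597 by edgeR). It was called without the OT2 NegSelected mouse (0.46, adjusted p = 0.0358) or the OT2 PosSelected mouse (0.42, 0.0314), and was at -0.02 when only the cells farthest from the median at each end were compared. Fos was at 0.54 (SE 0.30, adjusted p = 0.240, higher in 3 of 6 mice), Dnajb1 at -0.19 (SE 0.11, adjusted p = 0.278, lower in 5 of 6 mice), and Jund and Jun were within 1 SE of 0.

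Of the other heat shock genes 17 were tested, and 9 fell and 0 rose in cells with a high mitochondrial share. The list median was -0.42, against 0.01 over all genes. Hsp90aa1, the inducible HSP90, fell by 1.12 on the log2 scale (SE 0.14, adjusted p = 4.94e-06 by edgeR). Fkbp4, an HSP90 co-chaperone, was at -0.77 (adjusted p = 0.000131), Hsp90ab1 at -0.51 (adjusted p = 0.00021) and the constitutive HSP70 gene Hspa8 at -0.45 (adjusted p = 0.000221). The count was 8 to 12 without each mouse in turn and 7 by DESeq2. It was 2 without the deepest 5% of cells of each mouse and 1 without the mouse block. Immediate early genes had 2 higher and 2 lower of 23, but 0 higher and 0 lower without the OT1 NoSelection mouse, 0 higher without OT1 PosSelected and 4 higher without OT2 PosSelected. Leaving out OT1 NegSelected, OT2 NegSelected or OT2 NoSelection gave 1 higher and 1 lower. Endoplasmic reticulum genes had 0 of 10 called. Of the other AP-1 family genes 5 were tested and 1 was called, Bach2, higher in cells with a high share (0.60, SE 0.14, adjusted p = 0.00540 by edgeR). That call was lost in 4 alternatives, DESeq2 among them.

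**Figure D4:**
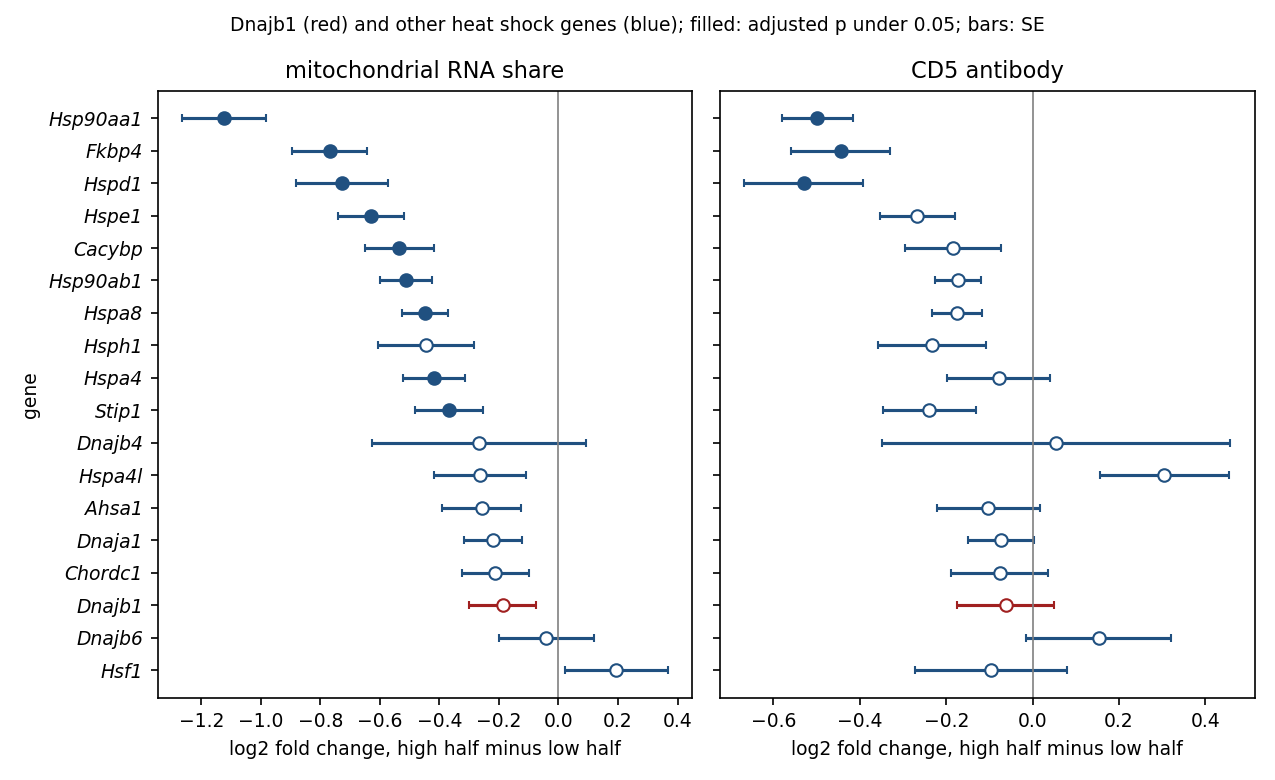
Difference in level (log2 fold change, high minus low, with SE) of Dnajb1 and 17 other heat shock genes when cells were divided by mitochondrial RNA share or by CD5 antibody; filled points have an adjusted p under 0.05. For the mitochondrial share 9 genes were called lower, led by Hsp90aa1 (-1.12), and Dnajb1 was at -0.19; for CD5, 3 genes were called lower.

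Over the 19 mouse and gate sums of at least 20 cells, the genes most alike in level to the summed AP-1 genes, of 3553 compared, were Pacsin1 (Pearson r = 0.83), Crlf3 (0.83) and Gimap6 (0.81). Those most alike to the summed heat shock genes, which are nearly all Dnajb1, were Selenos (0.87), Idh2 (0.80) and Casc3 (0.80). The sums share mice, the lane and gate-specific depth, so these r values are descriptions.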

How the data were processed

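RNA and antibody UMI counts per cell, deposited by the authors as whole-number matrices with a table tying each cell to a mouse by hashtag, were used; 180 antibody names were listed and 127 had a count. Cell Ranger 8.0.1, Seurat and the build mm10 are named in the submitters' processing notes, and filters on cells are not given in the sources used here, although the lowest gene number in a cell was 506 and the highest mitochondrial share 9.94%. No doublets were removed; an alternative left out cells above the 95th percentile of RNA UMIs of their mouse. T cell receptor libraries were not used.

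Antibody UMIs of CD4 and CD8A were scaled to the median antibody total, and log2(value + 1) was divided by a 2-component Gaussian mixture (scikit-learn 1.9.0), at 5.75 for CD4 and 6.24 for CD8A. RNA counts were summed per mouse, gate or divided group. Main tests used edgeR 4.0.16 (quasi-likelihood, TMM, filterByExpr, two-sided), in R 4.3.3; alternatives used DESeq2 1.42.0 and, for gates given equal weight, limma 3.58.1 on log2(CPM + 10). The host and receptor fit had 2 residual degrees of freedom. Because each receptor and host had 1 mouse, its p-values do not measure the spread between mice of the same group. They measure how far these 6 mice depart from a receptor effect and a host effect that add up. In fits with the mouse as a block, p-values measure how differences within a mouse vary between mice. Intervals for counts and shares are exact Poisson and Clopper-Pearson at 95%. The edgeR fits were also run on simulated counts, in which mice differed only in depth and only well-expressed genes were changed. That run does not bear on sparse genes such as Fos and Jun, or on real differences between mice. Genes of the lists are named in some comparisons only, mostly those with the lowest p. The list of 14 MAP kinase and ternary complex feedback genes is not described. Members and lists were chosen with earlier results of these data known. Promoter windows are from RefSeq (GRCm38.p6).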

Additional observations from a re-analysis of the deposited data

Results flagged for a closer look

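In 5 host contrasts a sparse or moderate gene moved one way in the OT2 mice and the opposite way in the OT1 mice. Each ratio compares 1 mouse with 1 mouse, and the difference between receptors was not tested. For Fos, NegSelected over PosSelected was 1.61 (1.615) in OT2 and 0.702 (0.7019) in OT1. For Jun, PosSelected over NoSelection was 1.959 in OT2 and 0.775 (0.7753) in OT1, NegSelected over PosSelected was 1.48 in OT2 and 0.600 (0.6003) in OT1, and NegSelected over NoSelection was 2.90 (2.899) in OT2 and 0.465 (0.4654) in OT1. For Junb, NegSelected over NoSelection was 2.19 (2.194) in OT2 and 0.893 (0.8929) in OT1. The 95% counting interval excluded 1 for Jun in OT1 (0.236 to 0.865) and for Junb in OT2 (1.48 to 3.31) in NegSelected over NoSelection, and included 1 in the other 8 ratios. The OT2 NoSelection mouse gave 4 Jun UMIs.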

How the results depend on the processing

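Of 359 values for single genes under alternatives, 338 kept their direction and side of the threshold, 6 gained a call, 7 lost one and 8 took the opposite sign. The opposite signs were Fos for undivided CD69 (-0.046), Junb for the outer parts of the mitochondrial share (-0.018), Junb in NegSelected minus NoSelection without the OT2 NoSelection mouse (-0.17, where leaving out each mouse gave -0.17 to 1.14) and, with gates given equal weight, Fos in NegSelected minus NoSelection (0.13) and PosSelected minus NoSelection (0.029), Dnajb1 in PosSelected minus NoSelection (0.07), and Jund (-0.11) and Junb (-0.21) in OT2 minus OT1; the cause was not tested. The number called in CD4+CD8- minus CD4+CD8+ was 1, and 0 with no filter on low counts (Jund 0.63, adjusted p = 0.0704 by edgeR), with at least 20 cells per sum (0.57, 0.141) and without cells near a threshold (0.75, 0.0695). Without each mouse in turn it ran from 0 to 1, as did the numbers called in OT2 minus OT1, PosSelected minus NoSelection and the mitochondrial division, each 0 otherwise. Over all genes edgeR and DESeq2 called 274 and 21 for CD5, 12 and 6 for CD69, 1291 and 411 for the mitochondrial share, 97 and 152 for CD4-CD8+ minus CD4+CD8+, 1 and 33 for PosSelected minus NoSelection, and 0 and 6 for NegSelected minus PosSelected. For called genes of the lists, 208 of 818 alternative values lost the call and none changed sign. A minimum of 20 cells in every mouse left only CD4-CD8- among the within-gate fits, with the same sums. No paired analysis was possible because each receptor and host had 1 mouse, so hosts and receptors share no replicate; comparisons within a mouse had the mouse as a block. Fosb, Hspa1a and Hspa1b had too few UMIs for any test, and Fos and Jun for the test between gates. Shares of cells with a UMI fall when cells are thinned: 31 of 35 moved by more than their interval.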
